A study of Mus musculus with 6 samples.

Results

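Sarcoplasmic reticulum calcium handling was described through 10 genes of excitation-contraction coupling and calcium buffering in skeletal muscle, *Cacna1s*, *Ryr1*, *Jph1*, *Trdn*, *Casq1*, *Casq2*, *Atp2a1*, *Atp2a2*, *Sln* and *Pvalb*. They are a fixed list of names, picked for the role of the proteins with earlier results of these data known, and all 10 were found among the 18089 genes of the deposited table. RNA-seq was run on ischemic gastrocnemius muscle taken 7 days after hindlimb ischemia (HLI), a model in which the femoral artery is ligated, to look for targets of GPR174, a G protein-coupled receptor. The libraries came from 3 WT mice and 3 *Gpr174*-/Y mice (labelled GPR174-KO), whose genotype is a knockout of the X-linked receptor gene not limited to muscle fibres or any other cell type. All 6 mice were males on the C57BL/6 background aged 8 to 10 weeks, the WT mice being littermate controls, and all had been ligated, so no uninjured muscle was among the libraries. Each library holds RNA of a whole muscle piece, in which fewer muscle fibres and less RNA per fibre cannot be told apart.

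In a muscle fibre, an action potential running down the transverse tubule moves the voltage sensor CaV1.1, and the sensor opens the ryanodine receptor in the facing sarcoplasmic reticulum membrane. Calcium leaves the reticulum, where calsequestrin had bound it, and contraction ends when SERCA pumps carry the ion back, with parvalbumin binding it in the cytosol of fast fibres. The gastrocnemius of the mouse is mostly a fast muscle, in which SERCA1 and calsequestrin 1 are the usual forms, whereas SERCA2 and calsequestrin 2 are known from slow fibres, heart and, for SERCA2, cells of most other tissues.

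Total counts were 18417077 to 18695013 in the WT libraries and 19173036 to 19394469 in the *Gpr174*-/Y libraries. The WT libraries held 8, 2 and 5 counts of *Gpr174* itself, and those of *Gpr174*-/Y mice 1, 0 and 0, which is near the limit of what this depth can detect. The label of the tissue was met, since 22 fibre genes such as *Acta1* and *Ckm* summed to between 203220 and 243829 TPM in WT and between 112733 and 123572 TPM in *Gpr174*-/Y muscles. Levels between genes are given in TPM, the transcript abundance scaled by length and library, and differences between the groups in CPM, the counts scaled to a common library size, after TMM, a method that sets the typical gene to no change. With TMM, 3891 genes were called higher and 3972 lower at an adjusted p of 0.05, and with total counts in its place 7303 higher and 2010 lower, as the median of all genes then moved by 0.28 on the log2 scale. The members were read under both scalings for this reason. In both groups the value of replicate 2 lay between those of the other replicates for all 10 members, which the labels do not account for, so each library is given and p-values hold only as far as the libraries are independent.

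The sequences that set the forms of SERCA2 apart, and that of the pump inhibitor, are shown first. The *Atp2a2* transcripts share 2983 coding bases from the start codon and differ at the coding end, which gives the shorter SERCA2a of 998 codons (NM_009722.3) and SERCA2b of 1044 codons (NM_001110140.3), the form with an additional membrane-spanning end. The coding ends particular to each, from GENCODE M21 on the minus strand of GRCm38, lie at chr5:122454291-122454304 and chr5:122457151-122457302. The coding sequence of *Sln*, on the plus strand at chr9:53853473-53853568, is shown in full because its 31 codons make the whole pump inhibitor, with the start and stop codons in capitals.
SERCA2a end: caatactggagtaa
SERCA2b end: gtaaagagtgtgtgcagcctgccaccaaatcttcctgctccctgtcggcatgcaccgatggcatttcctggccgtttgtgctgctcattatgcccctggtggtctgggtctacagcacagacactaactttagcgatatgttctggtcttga
Sln: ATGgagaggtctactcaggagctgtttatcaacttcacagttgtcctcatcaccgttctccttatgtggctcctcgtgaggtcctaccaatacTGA

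The 250 bases before the start of *Casq1* (chr1:172219896-172220145, minus strand), *Casq2* (chr3:102086165-102086414, plus strand) and *Pvalb* (chr15:78206401-78206650, minus strand) are shown from RefSeq on GRCm38.p6, because the first pair encodes the same kind of buffer with different RNA values and *Pvalb* had the lowest ratio of *Gpr174*-/Y to WT. Capitals mark the E-box CANNTG, the motif read by MyoD and myogenin among other factors. It was found at -195 and -67 in *Casq1*, at -200 and -52 in *Casq2* and nowhere in this *Pvalb* window, which precedes the start of the main transcript, so the calsequestrin pair did not differ in its number of E-boxes.
Casq1: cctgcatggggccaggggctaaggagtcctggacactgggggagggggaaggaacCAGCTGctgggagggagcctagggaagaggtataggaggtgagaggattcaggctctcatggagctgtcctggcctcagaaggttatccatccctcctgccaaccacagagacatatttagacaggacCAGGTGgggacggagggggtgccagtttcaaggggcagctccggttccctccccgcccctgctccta
Casq2: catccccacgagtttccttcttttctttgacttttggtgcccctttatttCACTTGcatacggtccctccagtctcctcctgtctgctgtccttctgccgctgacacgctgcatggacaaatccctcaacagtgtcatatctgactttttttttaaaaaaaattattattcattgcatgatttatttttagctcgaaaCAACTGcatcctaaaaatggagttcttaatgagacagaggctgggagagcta
Pvalb: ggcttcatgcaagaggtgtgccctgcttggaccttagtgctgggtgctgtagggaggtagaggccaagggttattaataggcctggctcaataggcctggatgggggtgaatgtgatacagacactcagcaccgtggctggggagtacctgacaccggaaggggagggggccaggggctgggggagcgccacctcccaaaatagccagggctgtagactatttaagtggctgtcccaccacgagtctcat
Windows were found for 6 of the 10 members, 7 windows in all, and both strands were searched. The other *Pvalb* window, before the minor transcript, held an E-box at -111. An E-box was in 66.2% of 32851 windows of the same length in the RefSeq table, so its presence marks no member. MCAT (CATTCC, 12.6% of all windows) was found once, in *Cacna1s*, and the NFAT core (GGAAA, 55.6%) once, in *Casq2*. The MEF2 motif was searched only in a narrow form that fixes its first and last bases (0.508%). This form and the CArG box (1.47%) were in none of the 7. The wider MEF2 form, with either pyrimidine first and either purine last, was not counted. The *Casq2* and *Pvalb* windows shown above hold matches to that wider form. A match here is a description of letters and not of binding.

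By TPM, the members spanned a wide range of levels. In WT muscles *Pvalb* (11193 TPM, mean of 3) and *Atp2a1* (9840 TPM) stood first with overlapping libraries, followed by *Casq1* (4071 TPM) and *Sln* (624 TPM), each apart from its neighbours. *Casq2* (278 TPM), *Ryr1* (266 TPM), *Trdn* (254 TPM), *Cacna1s* (213 TPM) and *Atp2a2* (175 TPM) followed, each overlapping the next, and *Jph1* was last at 93.5 TPM. In *Gpr174*-/Y muscles *Atp2a1* (4785 TPM) was first, apart from *Pvalb* (2932 TPM), and *Casq2* (387 TPM) and *Atp2a2* (236 TPM) stood above *Ryr1* (162 TPM), *Trdn* (138 TPM) and *Cacna1s* (124 TPM) with no overlap between *Atp2a2* and *Ryr1*. The members held 3.81%, 3.24% and 2.36% of all counts in the WT libraries, against 1.38%, 1.38% and 1.39% in those of *Gpr174*-/Y mice.

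In *Gpr174*-/Y muscles 7 of the 10 members were lower than in WT at an adjusted p of 0.05, none (0) was higher, and *Casq2*, *Atp2a2* and *Sln* did not pass (edgeR's quasi-likelihood test, Benjamini-Hochberg over 14395 genes). Of all tested genes 27.6% were called lower and 27.0% higher, 54.6% in all. All 7 also passed an absolute log2 fold change of 1, which 4.84% of tested genes did in that direction, 3.45% in the other and 8.29% in either. With total counts all 7 were again called lower, 4 of them past both thresholds, where 14.0% of all tested genes were called lower and 50.7% higher. In a fit of replicates 1 and 3 only, no member (0) was called, all 7 having adjusted p-values of 0.0542 to 0.0759 in edgeR and unadjusted ones under 0.05, and 0 genes of the table were called in that fit, where 5026 had an unadjusted p under 0.05. Scaled to other fibre genes, 1 member was called lower and 4 higher, where 93.3% of all tested genes were called higher and 0.646% lower. Between groups, libraries did not overlap for the 7 lower members and for *Sln*, and over all genes they did not overlap for 32.4% in the lower and 33.1% in the higher direction, 65.6% in all. The median log2 fold change was -1.15 over the members and 0.0 over all tested genes.

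**Figure D1:**
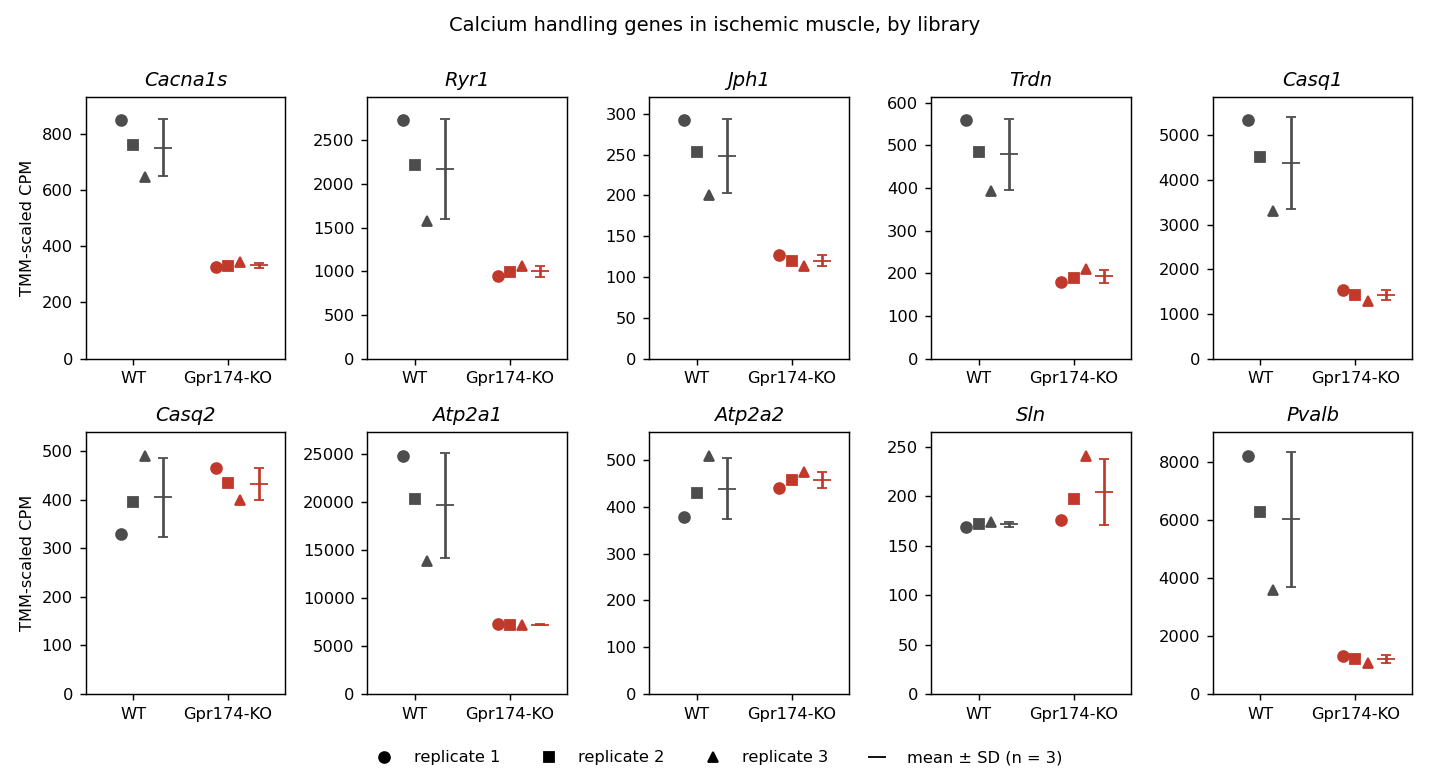
TMM-scaled CPM (vertical axis, from 0) of the 10 genes in each library, with mean and SD of 3 libraries beside the points. Gpr174-KO marks the *Gpr174*-/Y libraries, and they lie below every WT library for *Cacna1s*, *Ryr1*, *Jph1*, *Trdn*, *Casq1*, *Atp2a1* and *Pvalb*, whereas *Casq2* and *Atp2a2* overlap and *Sln* spans 169 to 174 in WT and 176 to 241 in Gpr174-KO.

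The voltage sensor and the release channel were both lower. *Cacna1s*, which encodes the pore and sensor subunit of CaV1.1 (chr1:136052750-136119822 of GRCm38, plus strand), had 848, 759 and 645 TMM-scaled CPM in the WT libraries 1, 2 and 3, against 326, 329 and 343 in those of *Gpr174*-/Y mice. The groups did not overlap, and the *Gpr174*-/Y libraries were close to each other. Its log2 fold change was -1.17 (SE 0.11, 95% interval -1.43 to -0.92, adjusted p = 0.000778 by edgeR's quasi-likelihood test), a 2.26-fold lower level. *Ryr1*, the release channel itself (chr7:29003344-29125179, minus strand), had 2727, 2214 and 1578 CPM in WT, against 940, 990 and 1065 CPM in *Gpr174*-/Y muscles. WT replicate 3 was the WT library nearest to the *Gpr174*-/Y group, as it was for all 7 lower members. The share of all genes with this order was not counted. In WT, replicate 2 lay between the other replicates in 77.1% of 9968 abundant genes, so an order of the WT libraries was not particular to the members. The log2 fold change of *Ryr1* was -1.12 (SE 0.20, 95% interval -1.59 to -0.66, adjusted p = 0.00376 in the same fit). The ratio of *Cacna1s* to *Ryr1* TPM, chosen after its values were seen, was 0.719, 0.792 and 0.938 in WT, against 0.795, 0.765 and 0.743 in *Gpr174*-/Y muscles, so the pair kept overlapping proportions.

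The triad, the junction that holds the sensor against the channel, showed the same direction in both of its scaffold members. *Jph1*, junctophilin 1, which ties the reticulum to the transverse tubule (chr1:16964560-17097889, minus strand), had 292, 253 and 201 CPM in WT, against 127, 120 and 113 CPM in *Gpr174*-/Y muscles. Its groups did not overlap, and the log2 fold change was -1.05 (SE 0.13, 95% interval -1.37 to -0.73, adjusted p = 0.00148 by the quasi-likelihood test). *Trdn*, triadin, which links calsequestrin to the ryanodine receptor (chr10:33080554-33476709, plus strand), had 558, 485 and 393 CPM in WT, against 179, 189 and 210 CPM in *Gpr174*-/Y muscles. The groups were again apart, with a log2 fold change of -1.31 (SE 0.14, 95% interval -1.64 to -0.99, adjusted p = 0.000968 in the same fit).

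Of the luminal buffers, *Casq1* was lower and *Casq2* did not pass the test. *Casq1*, the fast-fibre calsequestrin (chr1:172209894-172219868, minus strand), had 5330, 4507 and 3297 CPM in WT, against 1528, 1432 and 1293 CPM in *Gpr174*-/Y muscles. Every *Gpr174*-/Y library was below every WT library, and the level was 3.09-fold lower (log2 fold change -1.63, SE 0.19, 95% interval -2.07 to -1.18, adjusted p = 0.00119 by the quasi-likelihood test). *Casq2* (chr3:102086415-102146514, plus strand) had 330, 395 and 491 CPM in WT, against 466, 435 and 399 CPM in *Gpr174*-/Y muscles, the groups overlapping. Its log2 fold change of 0.10 had an interval of -0.25 to 0.45 (SE 0.15, adjusted p = 0.603 in the same fit), which leaves room for a modest change either way. On the TPM scale *Casq2* was 215, 268 and 353 in WT, against 404, 387 and 370 in *Gpr174*-/Y muscles, where the groups did not overlap. Without WT replicate 3 its log2 fold change was 0.27 (adjusted p = 0.0356 in edgeR) and without WT replicate 1 it was -0.02 (adjusted p = 0.879 in edgeR).

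Of the pumps, the fast form was lower and the widely expressed form did not pass the test. *Atp2a1*, SERCA1 (chr7:126445858-126463108, minus strand), had 24848, 20309 and 13905 CPM in WT, against 7258, 7224 and 7219 CPM in *Gpr174*-/Y muscles. The WT libraries differed by up to 1.79-fold among themselves and the *Gpr174*-/Y libraries by at most 1.01-fold, and the groups did not overlap. The log2 fold change was -1.44 (SE 0.22, 95% interval -1.97 to -0.92, adjusted p = 0.0024 by the quasi-likelihood test), a 2.72-fold lower level. *Atp2a2*, SERCA2 (chr5:122453513-122502225, minus strand), had 379, 429 and 509 CPM in WT, against 440, 457 and 475 CPM in *Gpr174*-/Y muscles. The *Gpr174*-/Y values lay within the WT range, with a log2 fold change of 0.06 (SE 0.11, 95% interval -0.21 to 0.33, adjusted p = 0.68 in the same fit). In TPM, *Atp2a2* was 143, 169 and 212 in WT, against 220, 235 and 254 in *Gpr174*-/Y muscles, so that whether its groups overlap depends on the scale. Without WT replicate 1 the log2 fold change was -0.03.

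*Sln* encodes sarcolipin, a small membrane protein that inhibits the SERCA pump (chr9:53850164-53854560, plus strand). It had 169, 172 and 174 CPM in WT, against 176, 197 and 241 CPM in *Gpr174*-/Y muscles. The groups did not overlap but came within 2 CPM of each other after rounding. The log2 fold change was 0.25 (SE 0.11, 95% interval -0.02 to 0.52, adjusted p = 0.0973 by the quasi-likelihood test) and did not pass. With total counts it was 0.53 (adjusted p = 0.0106 in that edgeR fit), and without *Gpr174*-/Y replicate 1 it was 0.35 (adjusted p = 0.0351 in edgeR), whereas without *Gpr174*-/Y replicate 3, the library at 241 CPM, it was 0.12 (adjusted p = 0.213 in edgeR). Its value thus depends on the scaling and on single *Gpr174*-/Y libraries. In TPM, *Sln* was 586, 622 and 664 in WT, against 811, 935 and 1186 in *Gpr174*-/Y muscles. The effective length of its only transcript, worked out here from the deposited counts and FPKM, is 471 bases against 1318 bases for the GENCODE model. The TPM of *Sln* relative to other genes depends on that length.

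*Pvalb*, parvalbumin, the cytosolic calcium buffer of fast fibres (chr15:78191114-78206400, minus strand), had the lowest fold change of the members. It had 8211, 6289 and 3579 CPM in WT, against 1319, 1208 and 1049 CPM in *Gpr174*-/Y muscles. The groups were far apart, but WT replicate 3 held well under the other WT libraries. The level was 5.06-fold lower (log2 fold change -2.34, SE 0.30, 95% interval -3.05 to -1.63, adjusted p = 0.00148 by the quasi-likelihood test). With each library left out in turn its log2 fold change ran from -2.60 to -2.04.

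The 7 lower members did not move alone. All 22 fibre reference genes, a list of contractile, Z-disc and glycolytic fibre genes that holds none of the members, were lower as well, with a median log2 fold change of -1.33, from -2.07 for *Mybpc2* to -0.82 for *Neb*. No gene of that list (0 of 22) had a lower fold change than *Pvalb*. The 9 fast fibre markers, all in the reference too, were lower with a median of -1.44. Of the 8 slow fibre markers 4 were lower, 2 higher and 2 not called (median -0.53), against 3 lower and 4 higher by total counts. With TMM, *Myl2* (-4.29), *Myl3* (-4.11), *Myh7* (-1.43) and *Myoz2* (-1.1) were lower, and *Tnnc1* (1.09) and *Tpm3* (0.37) higher. Of 12 markers of regenerating fibres 9 were higher and 3 not called (median 1.07), and they summed to 6252 to 7601 TPM in WT and 9198 to 10968 TPM in *Gpr174*-/Y muscles. All 8 macrophage markers were higher (median 0.88), with a sum of 1618 to 2706 TPM in WT and 5221 to 5465 TPM in *Gpr174*-/Y muscles. The 7 endothelial markers were lower (median -0.70, 470 to 513 TPM against 379 to 399 TPM). Of the fibroblast markers 2 were higher and 3 lower (4011 to 5907 TPM against 8900 to 9479 TPM), of the smooth muscle markers 2 were higher and 1 lower of 5 (343 to 487 TPM against 953 to 1036 TPM), and of the adipocyte markers 2 were higher and none (0) lower of 5 (202 to 332 TPM against 347 to 471 TPM). By total counts, 2 fibroblast markers were higher and 2 lower, with *Pdgfra* changed in sign, and 3 smooth muscle and 3 adipocyte markers were higher. No marker of these cell lists was at 0 TPM in any library, and their part in the values of the members was not tested.

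Set against the other fibre genes of the same library, the members fell into groups. The measure was log2 TPM minus the mean log2 TPM of the 22 reference genes, compared by a 2-sided exact permutation test of 3 against 3, whose smallest p is 0.1. Because the reference itself was lower, the median difference over the tested genes was 1.36 by this measure, and a gene near that value moved like the typical gene and not like the fibre genes. *Pvalb* was lower by this measure as well, at 1.65, 1.46 and 0.99 in WT, against 0.55, 0.47 and 0.35 in *Gpr174*-/Y muscles, a difference of -0.91. *Casq1* differed by -0.25 without overlap, from 0.02, -0.03 and -0.13 in WT to -0.25, -0.29 and -0.35. *Atp2a1* (-0.05) and *Trdn* (0.09) overlapped between the groups, with exact p = 0.6 and exact p = 0.7.
*Jph1* (0.31), *Ryr1* (0.27) and *Cacna1s* (0.19) were slightly above the WT libraries relative to the reference, without overlap. The gap was very narrow for *Ryr1* (highest WT -3.87, lowest *Gpr174*-/Y -3.86) and for *Cacna1s* (-4.21 and -4.2). *Atp2a2* (1.41), *Casq2* (1.46) and *Sln* (1.59), which the comparison by CPM had not called, lay near the 1.36 of the typical gene. For these 8 members with groups apart the exact p was 0.1 each, or 0.125 after Benjamini-Hochberg adjustment over the 10 exact tests. The design could thus not take any of them past 0.05. The share of all tested genes with groups apart by this measure was not counted, so the 8 are not set apart from other genes. In edgeR scaled to the same fibre genes, 93.3% of tested genes were called higher and 0.646% lower.

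**Figure D2:**
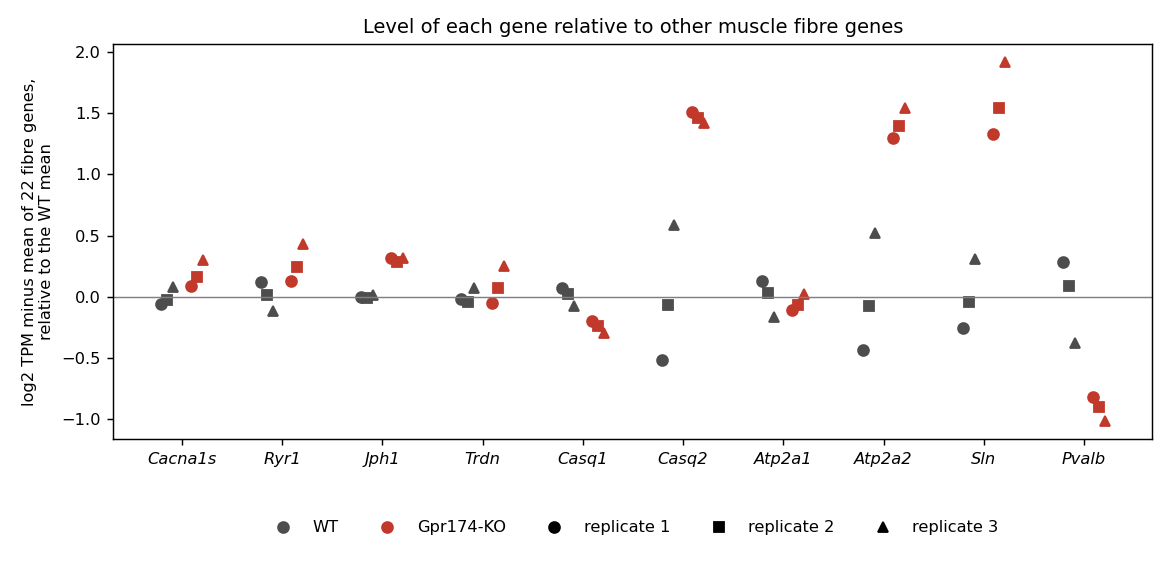
Level of each gene relative to 22 other fibre genes in the same library, in log2 units, set to 0 at the WT mean (vertical axis), with a point for each library and a shape for each replicate number. *Sln*, *Casq2* and *Atp2a2* stand 1.41 to 1.59 above WT in the Gpr174-KO libraries, near the median of 1.36 over all tested genes, *Pvalb* stands 0.91 below, and *Atp2a1* and *Trdn* overlap.

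Ratios of the fast-fibre form to the other form of a pair were computed within each library, which needs no scaling between libraries. They were not tested as a measure of fibre type, and the slow fibre markers went both ways. There were 83.6, 60.3 and 34.9 *Atp2a1* per *Atp2a2* transcript by TPM in the WT libraries, against 21.1, 20.2 and 19.5 in those of *Gpr174*-/Y mice, a 2.76-fold lower ratio. *Casq1* to *Casq2* was 22.2, 15.7 and 9.22 in WT, against 4.50, 4.52 and 4.45 in *Gpr174*-/Y muscles, a 3.28-fold lower ratio. In both pairs the *Gpr174*-/Y libraries were nearly equal and the WT libraries spread widely.
*Sln* to *Atp2a1*, inhibitor per fast pump transcript, was 0.049, 0.0611 and 0.0898 in WT, against 0.174, 0.196 and 0.24 in *Gpr174*-/Y muscles, a 3.12-fold higher ratio. None of the 3 ratios overlapped between the groups (2-sided exact permutation test, p = 0.1 each and also 0.1 after adjustment over the 3, the smallest p the design allows). Among ratios chosen after their values were seen, and so not tested, *Pvalb* to *Atp2a1* was 1.23, 1.15 and 0.96 in WT, against 0.677, 0.623 and 0.542 in *Gpr174*-/Y muscles. *Sln* to *Atp2a2* was 4.10, 3.69 and 3.13 in WT, against 3.69, 3.98 and 4.67 in *Gpr174*-/Y muscles, and overlapped.

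**Figure D3:**
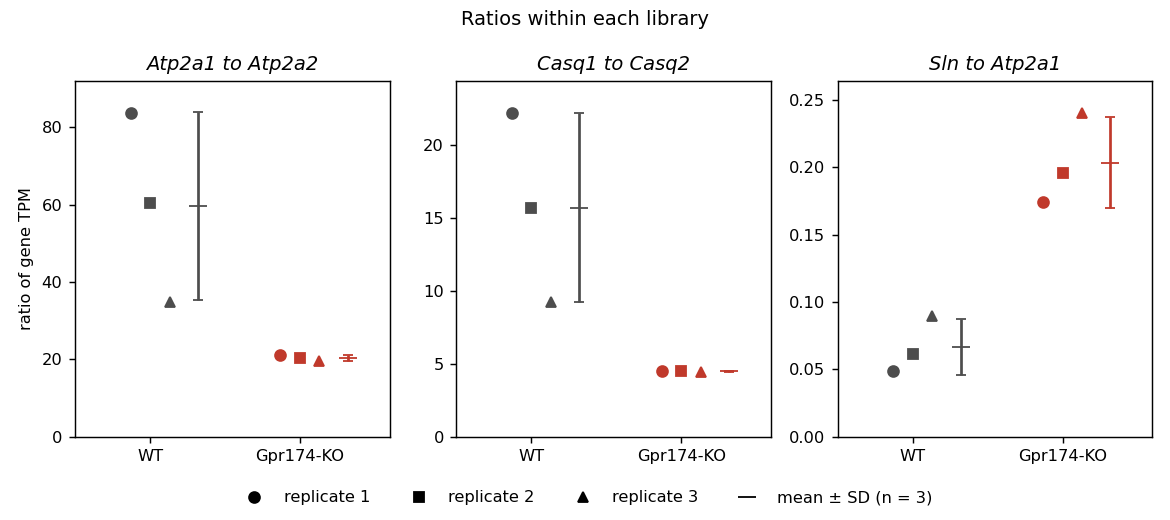
Ratios of gene TPM within each library (vertical axes, from 0), with mean and SD of 3 libraries. *Atp2a1* to *Atp2a2* and *Casq1* to *Casq2* are lower and *Sln* to *Atp2a1* higher in every Gpr174-KO library than in any WT library.

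The split between transcripts of a gene also differed for some members, as estimated by the submitters' counting. SERCA2b, the longer *Atp2a2* form whose end is shown above, took 30.8%, 30.7% and 30.0% of *Atp2a2* TPM in WT, against 43.1%, 41.8% and 40.0% in *Gpr174*-/Y muscles. SERCA2a took the rest, at 99.0, 117 and 148 TPM in WT, against 125, 137 and 152 TPM in *Gpr174*-/Y muscles, so SERCA2a overlapped between the groups while SERCA2b (44.0, 51.7 and 63.5 TPM against 94.8, 98.3 and 102 TPM) did not. The second *Atp2a1* model, XM_006507268.2, took 5.82%, 6.89% and 8.81% in WT, against 17.7%, 18.4% and 18.1% in *Gpr174*-/Y muscles. Its level of 696, 701 and 651 TPM in WT, against 823, 875 and 896 TPM in *Gpr174*-/Y muscles was higher without overlap, against 11260, 9474 and 6738 TPM and 3828, 3884 and 4050 TPM for the main form NM_007504.2. The *Atp2a1* models thus differed in direction in TPM, a scale without TMM. With total counts the median of all genes was itself higher by 0.28 on the log2 scale. Single transcripts were not scaled by TMM, so a rise of the second model beside the typical gene was not tested.
Of the *Trdn* transcripts, NM_001364696.1 took 4.38%, 3.41% and 3.56% in WT, against 15.7%, 18.1% and 12.4% in *Gpr174*-/Y muscles, and NM_001364697.1 took 32.8%, 33.3% and 37.5% and then 26.5%, 23.6% and 25.6%. By expected counts in place of TPM these share differences were smaller, 4.33 percentage points in place of 11.6 and -3.17 in place of -9.29. The longest form, NM_029726.2, overlapped between the groups in share but not in TPM, at 177, 160 and 134 in WT, against 73.1, 79.5 and 94.3 in *Gpr174*-/Y muscles. *Casq1*, *Casq2* and *Sln* had 1 transcript each in the table, the second *Pvalb* transcript took under 1% in all 6 libraries, and the leading transcripts of *Jph1*, *Ryr1* and *Cacna1s* overlapped in share. The second *Ryr1* transcript, XM_006539692.3, took a smaller share without overlap, at 14.3%, 12.9% and 14.5% in WT and 9.69%, 9.48% and 9.64% in the *Gpr174*-/Y libraries. No test was run on shares, since transcripts of a gene have bases in common and the split is an estimate.

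**Figure D4:**
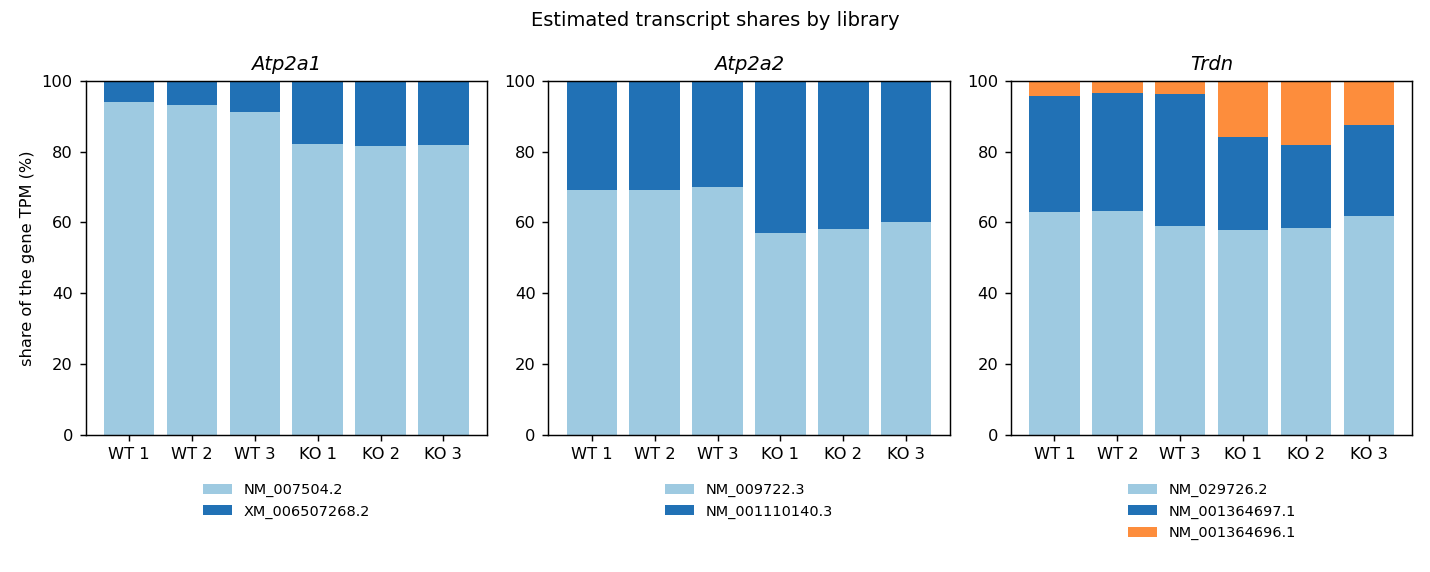
Share of the gene TPM (%, vertical axis) estimated for each RefSeq transcript of *Atp2a1*, *Atp2a2* and *Trdn* in each library, with KO for the *Gpr174*-/Y libraries. The second *Atp2a1* transcript, NM_001110140.3 of *Atp2a2* and NM_001364696.1 of *Trdn* hold larger shares in every *Gpr174*-/Y library than in any WT library.

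Reads of overlapping genes could enter some of these counts if strand was not used in counting, which the sources used here do not give. The largest such overlap with a gene of the table was that of *Atp2a1* with *Rabep2* on the opposite strand, 763 exonic bases. *Rabep2* had 334 to 377 counts in WT and 374 to 419 in *Gpr174*-/Y muscles against at least 151967 for *Atp2a1*, and the part of shared reads in either count was not tested. Antisense genes that are not in the table overlap *Cacna1s* by 1309 exonic bases, *Ryr1* by 864 and *Casq1* by 156.

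Other calcium handling genes were read from 8 lists, and 74 of them passed the filter on low counts. Of these 38 were lower, 18 higher and 18 not called, with a median log2 fold change of -0.26, beside 27.6% lower and 27.0% higher among all genes, and with total counts 28 were lower and 31 higher. Among 17 partners of the voltage sensor and the triad, 14 were lower, 1 higher and 2 not called, with a median of -0.75, and with total counts 13 were lower and *Bin1* changed sign. In what follows, fold changes are of TMM-scaled counts and stand beside mean TPM. *Tmem38a*, the TRIC-A counter-ion channel of the reticulum, fell from 775 ± 115 TPM to 427 ± 6.97 TPM (SD, n = 3; log2 fold change -1.26, edgeR adjusted p = 0.00124). *Sypl2*, mitsugumin 29 of the triad membrane, fell by as much on the log2 scale (-1.26, adjusted p = 0.00144 in edgeR), and *Selenon*, a selenoprotein of the reticulum membrane, rose (0.50, adjusted p = 0.00692 in edgeR).
Of 12 tested regulators of the channel and the pump 7 were lower, none (0) higher and 5 not called, with a median of -0.59, although total counts gave 5 lower and 2 higher. *Camk2b*, a calmodulin-dependent kinase subunit, fell by 1.03 on the log2 scale (SE 0.06, adjusted p = 0.000391 in edgeR). *Ppp1r3a*, the muscle glycogen-targeting subunit of protein phosphatase 1, fell by 1.17 on the log2 scale (adjusted p = 0.00582 in edgeR). *Pln*, which encodes the pump inhibitor phospholamban of slow and cardiac muscle, had 6 to 11 counts in each library and *Strit1* at most 3, so the filter removed both.

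Isoforms of the channels and pumps that are typical of other tissues were split, with 3 higher, 3 lower and 2 not called of 8 tested (median 0.21). By total counts 5 were higher and 1 lower, and *Itpr1*, called lower with TMM (-0.19), changed sign. *Ryr3*, known from developing muscle, rose from 0.717 ± 0.0379 TPM to 1.56 ± 0.121 TPM (SD, n = 3; log2 fold change 0.73, adjusted p = 0.00146 in edgeR), which is far below *Ryr1*. *Itpr3*, an inositol trisphosphate receptor, rose by less (0.42, adjusted p = 0.0102 in edgeR), and *Jph4*, a junctophilin known from neurons, fell (-1.28, adjusted p = 0.00596 in edgeR) at under 1 TPM. *Atp2a3*, SERCA3, was called lower at -0.37 (adjusted p = 0.00395 in edgeR) with TMM but had -0.10 (adjusted p = 0.216) with total counts.
Store-operated entry refills the reticulum through Stim sensors and Orai pores, and 2 of its 5 genes were lower and 1 higher (median 0.16, with 1 lower and 3 higher by total counts). *Stim1*, the sensor of reticulum calcium, fell from 137 ± 6.56 TPM to 101 ± 0.533 TPM (SD, n = 3; log2 fold change -0.84, adjusted p = 0.000936 in edgeR), and *Stim2* rose (0.33, adjusted p = 0.00759 in edgeR). *Orai1* was called lower with TMM (-0.32, adjusted p = 0.00599 in edgeR) and not with total counts (-0.04, adjusted p = 0.493).

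Of the genes of mitochondrial calcium uptake, 4 of 8 were lower, 1 higher and 3 not called (median -0.18, with 3 lower and 4 higher by total counts). *Mcub*, the subunit that dampens the uniporter, rose from 7.77 ± 2.56 TPM to 18.7 ± 0.537 TPM (SD, n = 3; log2 fold change 0.89, adjusted p = 0.00747 in edgeR). *Micu3*, a regulator of uniporter gating, fell by 0.99 (adjusted p = 0.00931 in edgeR) and *Letm1*, an ion exchanger of the inner membrane, by 0.54 (adjusted p = 0.00308 in edgeR). All 5 genes of extrusion across the plasma membrane were called, 3 higher and 2 lower (median 0.17). The exchangers went opposite ways, *Slc8a3* at -0.68 (adjusted p = 0.01 in edgeR) and *Slc8a1* at 0.55 (adjusted p = 0.00482 in edgeR), and so did the pumps, *Atp2b2* at -1.08 (adjusted p = 0.0301 in edgeR, or 0.075 with total counts, and 6 to 20 counts a library) and *Atp2b1* at 0.20 (adjusted p = 0.0362 in edgeR).
Calcineurin, the calcium-dependent phosphatase, and its partners were mostly lower, with 6 of 10 lower, 1 higher and 3 not called (median -0.44, with 4 lower and 4 higher by total counts). The inhibitors *Rcan2* (-1.41, adjusted p = 0.00186 in edgeR) and *Rcan1* (-1.08, adjusted p = 0.00756 in edgeR) fell, and the transcription factor *Nfatc2* rose (0.35, adjusted p = 0.015 in edgeR). The chaperones and calcium binders of the ordinary endoplasmic reticulum stood apart from the rest, with 8 of 9 higher, none (0) lower and *Sdf4* not called (median 0.64). *Rcn1*, a luminal calcium binder, rose from 39.1 ± 10.9 TPM to 88.7 ± 4.57 TPM (SD, n = 3; log2 fold change 0.80, adjusted p = 0.00611 in edgeR), and *Hspa5*, the chaperone BiP, from 196 ± 31.3 TPM to 443 ± 9.14 TPM (0.79, adjusted p = 0.00128 in edgeR).

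**Figure D5:**
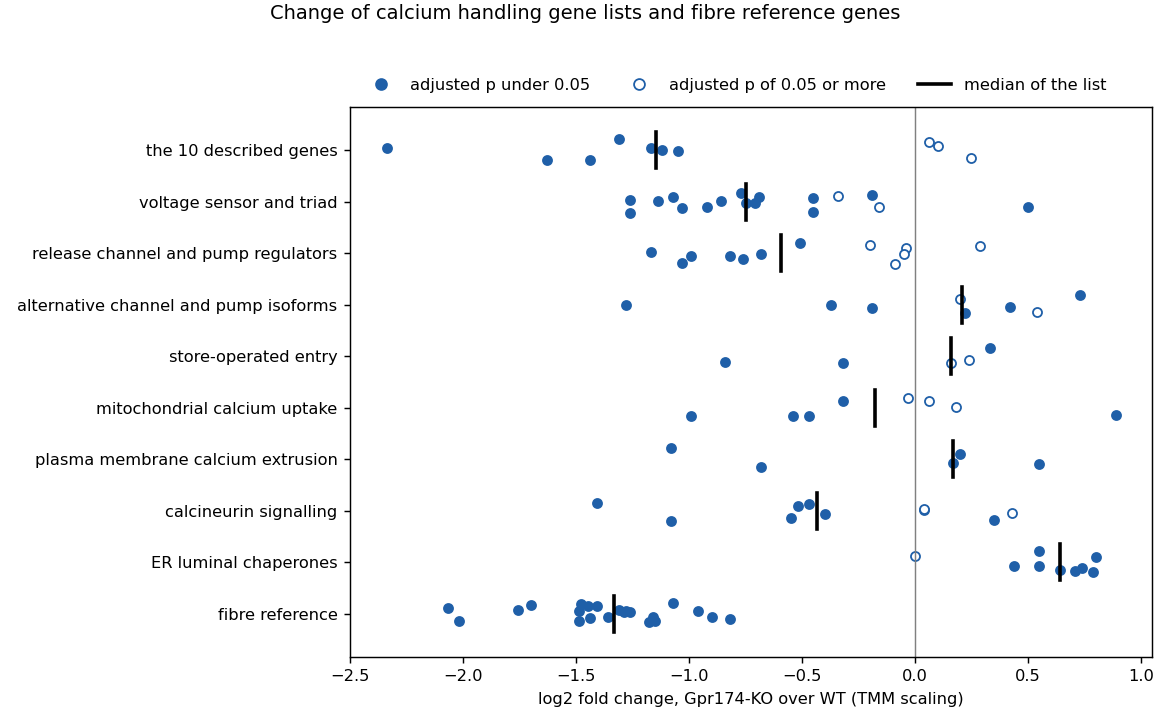
Log2 fold change of *Gpr174*-/Y over WT (horizontal axis) of each tested gene of the calcium handling lists and of the fibre reference, with filled points for an adjusted p under 0.05 and a bar at the median of each list. The medians run from -1.33 for the fibre reference and -1.15 for the 10 described genes to 0.64 for the ER luminal chaperones.

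The gene most like each member over the 6 libraries was sought among 9968 genes with a mean of at least 10 CPM, by the root mean square difference of centred log2 CPM. For *Atp2a1* it was *Actn3*, the fast-fibre Z-disc protein (0.0237), for *Ryr1* the mitochondrial tether *Mfn2* (0.0384), for *Pvalb* the muscle ribosomal protein *Rpl3l* (0.062) and for *Casq1* it was *Wfdc1* (0.0358). *Cacna1s* was nearest to *Coq10a* (0.0223), *Jph1* to *Satb1* (0.0233) and *Trdn* to *Itih5* (0.0257). Among the members that were not called, *Casq2* was nearest to *Map3k7cl* (0.0198), *Atp2a2* to *Stoml1* (0.0308) and *Sln* to *Ppig* (0.0449). *Rpl3l* had a log2 fold change of -2.29 beside -2.34 for *Pvalb*, and *Actn3* -1.41 beside -1.44 for *Atp2a1*. Such closeness follows from the choice, which used the same 6 libraries and so the group difference itself.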

How the data were processed

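RNA of 6 ischemic muscles was sequenced on the BGISEQ-500 platform by the methods, while the labels name an Illumina TruSeq library kit. Per the labels, the submitters' processing notes list HISAT2 2.0.4, Bowtie2 2.2.5, RSEM 1.2.12 and GRCm39, with no roles, and the use of strand is not given in the sources used here. The authors deposited expected counts for 58843 RefSeq transcripts, which are estimated reads that need not be whole. The same deposited table gives FPKM and TPM for each library, and its 6 group mean columns were not used. It holds no coordinates, so positions are from GENCODE M21 and promoters from RefSeq, both on GRCm38.

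The transcripts of a gene were added up and rounded to whole counts (18089 genes, 99.7% with a symbol). The groups were compared with edgeR 4.0.16 in R 4.3.3 (TMM, its filter on low counts, robust quasi-likelihood test), with Benjamini-Hochberg adjustment over 14395 genes, an adjusted p of 0.05 and, as in the methods, an absolute log2 fold change of 1. DEGseq, named in the methods, was not run. Ratios and relative levels used TPM and exact permutation tests. Libraries of a group differed by more than counting noise, but unequally. Chi-square per degree of freedom was 12.1 to 70.9 between WT libraries and 1.85 to 9.35 between *Gpr174*-/Y libraries. The lowest value, for *Gpr174*-/Y replicates 1 and 2, was the nearest to counting noise. Replicate 2 lay between the others in 77.1% (WT) and 68.2% (*Gpr174*-/Y) of 9968 abundant genes and in all 10 members. The labels give no reason for either pattern. The methods give 3 mice per group. The edgeR p-values set the difference between groups against the spread of these libraries, taken over both groups together.

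Alternatives were DESeq2 1.42.0, limma 3.58.1 (voom, and log2 FPKM with a pseudocount of 1 or 0.1 where 3 libraries reached an FPKM of 1), other scalings and filters, a replicate block and leaving out libraries. The tests were tested on simulated data. The members and lists were chosen with earlier results of these data known. Besides the members and *Gpr174*, genes were named as the largest called changes of each list, at most 2 a direction, and the nearest gene of each member. *Bin1*, *Itpr1*, *Sdf4*, *Pln*, *Strit1*, *Rabep2*, *Pdgfra* and the other marker genes named were added after their values were seen.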

Additional observations from a re-analysis of the deposited data

How the results depend on the processing

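Of 180 member log2 fold changes under 18 alternatives, 157 kept their direction and side of the threshold. Scaling by the fibre reference genes, which moved the median of all genes to 1.33, left 1 member lower and 4 higher (0 and 3 past both thresholds) and, of the other calcium handling genes, 0 lower and 63 higher, where 93.3% of all tested genes were called higher. It reversed *Ryr1* to 0.26, *Cacna1s* to 0.18, *Jph1* to 0.31 and *Trdn* to 0.05. With replicates 1 and 3 of each group alone, 0 members and 0 other genes were called lower (0 past both thresholds) and 0 others higher, where 7 members and 47 others had an unadjusted p under 0.05 in edgeR, and no gene had an adjusted p under 0.0542. Total counts gave 1 member higher, 4 lower past both thresholds and 31 others higher, and limma with either pseudocount on FPKM gave 1, 3 and 30. The causes were not tested beyond what each scaling does by construction. Leaving out each library gave 7 members lower throughout and 0 to 1 higher (*Sln* without *Gpr174*-/Y replicate 1, *Casq2* at 0.27 without WT replicate 3), and 5 to 7 lower past both thresholds. *Atp2a2* then ran from -0.03 to 0.19 and *Casq2* from -0.02 to 0.27, both reversed without WT replicate 1, where the level of *Atp2a1* relative to the fibre reference also reversed to 0.02, its range being -0.14 to 0.02, as it did with fast fibre markers as reference (0.07). With expected counts in place of TPM the *Trdn* share differences were -3.17 percentage points for NM_001364697.1 and 4.33 for NM_001364696.1, against -9.29 and 11.6. The 24 alternatives to the ratios kept their direction. Deviations of same-numbered libraries correlated at 0.008, 0.05 and 0.005, so libraries of the same number shared no visible deviation. Whether the mice were paired by design is not given in the labels. A replicate block gave 7 members lower and 0 higher, and 35 other calcium handling genes lower and 18 higher. Depth sets limits for genes such as *Gpr174* and *Atp2b2* with few counts.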
